A study of Nicotiana tabacum with 6 samples.

Results

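Nitrogen assimilation was followed through 4 genes in 6 RNA-seq libraries of tobacco leaf, out of 68476 loci in the deposited table. They are the nitrate reductase copies NIA1 (ncbi_107823732) and NIA2 (ncbi_107785409), the nitrite reductase gene nii2 (ncbi_107767028) and the glutamate dehydrogenase gene gdh1 (ncbi_107778990), each found by this identifier, which holds its NCBI gene number. The libraries were made from poly(A) RNA of mature leaves of Nicotiana tabacum, 3 from wild-type plants (labelled WT) and 3 from NtispH overexpressors (labelled OE-NtispH), grown under the same conditions per the study's design. NtispH belongs to the plastid MEP pathway, which supplies precursors of terpenoids, and the design asks about its part in glandular trichome development. The sources used here do not give the promoter of the transgene, the number of transgenic lines or the plant age, nor do they say whether each library stands for its own plant, so the spread between libraries may be technical. All 4 genes were picked with the difference between these groups already known, so their differences below are a description and carry no test.

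Plants take up nitrate and reduce it to nitrite in the cytosol with nitrate reductase, a molybdenum enzyme that draws electrons from NAD(P)H. Nitrite, which is toxic, enters the plastid and is reduced to ammonium by nitrite reductase with electrons from ferredoxin. Ammonium is then built into glutamine and glutamate by glutamine synthetase and glutamate synthase, while glutamate dehydrogenase, a mitochondrial enzyme, is known mainly for breaking glutamate down to 2-oxoglutarate and ammonium when carbon is short. Tobacco is an allotetraploid and carries nitrate reductase as NIA1 and NIA2, whose transcripts in other work respond to nitrate, light and the time of day.

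The locus named ISPH, taken here as the overexpressed gene, did not separate the groups. Other copies of ISPH were not looked up, and no sequence was used to link the transgene to this locus. ISPH (LOC107760258) held 108.2, 3038 and 558.6 FPKM across the 3 WT libraries and 2761, 684.6 and 853.7 FPKM across the 3 OE-NtispH libraries, in replicate order. One library labelled WT therefore held the highest value. The level at this locus therefore does not check the labels, which may be wrong for some libraries. Every direction below is between libraries as labelled. FPKM is a fragment count divided by transcript length and by the fragments of the library, so levels of different genes can be compared, but the number of reads behind a value is unknown. Of 6 leaf mesophyll marker loci, all 6 had a log2 change below 0. Their summed level was 4967 to 6836 FPKM in OE-NtispH against 8546 to 9821 in WT. Lhcb6 and GAPB, 2 of the 6, were called lower (limma, adjusted p of 0.0486 and 0.0363), beside 0.567% of all tested loci. The 6 loci cover only part of 10 planned symbols: rbcS, RBCS, psaD, PSAL and psbO matched no locus, and Rca matched more than 1. Of 7 root marker loci, 6 averaged under 1 FPKM, and 5 of these were listed at 0 in every library. The summed level was at most 3.05 FPKM, in OE-NtispH replicate 2, where the locus matched by TobRB7 held 2.74 FPKM. Of 6 planned glandular trichome symbols, only NtABS and NtPDR1 matched a locus. They summed to 119.8 to 156.2 FPKM in WT and 123.5 to 236.7 in OE-NtispH, most of it NtPDR1. NtABS averaged 10.5 FPKM in WT and 10.7 in OE-NtispH. NtPDR1 stood at 145.2, 108.5 and 115.7 FPKM in WT and 226.4, 111.7 and 204.5 in OE-NtispH (limma, adjusted p = 0.272). The groups overlapped for both.

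The nitrate reductase transcripts were the most abundant of the 4 and differed most between the groups. NIA1 stood at 86.3, 76.5 and 69.9 FPKM in WT replicates 1, 2 and 3. In OE-NtispH replicates 1, 2 and 3 it stood at 352.4, 482.9 and 153.2 FPKM. The groups did not overlap, and the lowest OE-NtispH library was 1.77 times the highest WT library. The mean level was 77.5 ± 8.27 FPKM in WT and 329.5 ± 166.0 in OE-NtispH (SD, n = 3), a ratio of means of 4.25. On the log2(FPKM + 1) scale the change was 1.93 (SE 0.40), or 1.80 relative to the median change of 0.13 over all 40725 tested loci (those that averaged 0.5 FPKM or more).

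NIA2 followed the same order of libraries within OE-NtispH. Its level was 64.1, 56.1 and 41.6 FPKM in WT replicates 1, 2 and 3, and 270.2, 355.0 and 96.2 FPKM in OE-NtispH replicates 1, 2 and 3. Again the groups did not overlap, and OE-NtispH replicate 2 was highest and replicate 3 lowest of its group. The mean level was 53.9 ± 11.4 FPKM in WT and 240.5 ± 131.9 in OE-NtispH (SD, n = 3), and its log2 change was 1.96 (SE 0.50). Both copies varied far more within OE-NtispH than within WT: the highest OE-NtispH library was 3.15 times the lowest for NIA1 and 3.69 times for NIA2, against 1.24 and 1.54 times in WT. Among tested loci, 661 had a larger SD over the OE-NtispH libraries on the log2 scale than NIA1. In rank of level among all loci, NIA1 was between places 930 and 1220 in the WT libraries and between places 214 and 547 in the OE-NtispH libraries.

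The difference of the nitrate reductases depends in size on OE-NtispH replicate 3. Set against the WT mean on the log2(FPKM + 1) scale, NIA1 was higher by 2.18, 2.63 and 0.98 in OE-NtispH replicates 1, 2 and 3, and NIA2 by 2.33, 2.72 and 0.85. Without replicate 3 the change of NIA1 was 2.40 and that of NIA2 2.52. Without replicate 2 they were 1.58 and 1.59. The libraries stood in another order for ISPH than for NIA1: from the highest level down, WT replicates 1, 2 and 3 were in places 6, 1 and 5 for ISPH and 4, 5 and 6 for NIA1, and OE-NtispH replicates 1, 2 and 3 in places 2, 4 and 3 for ISPH and 2, 1 and 3 for NIA1.

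**Figure D1:**
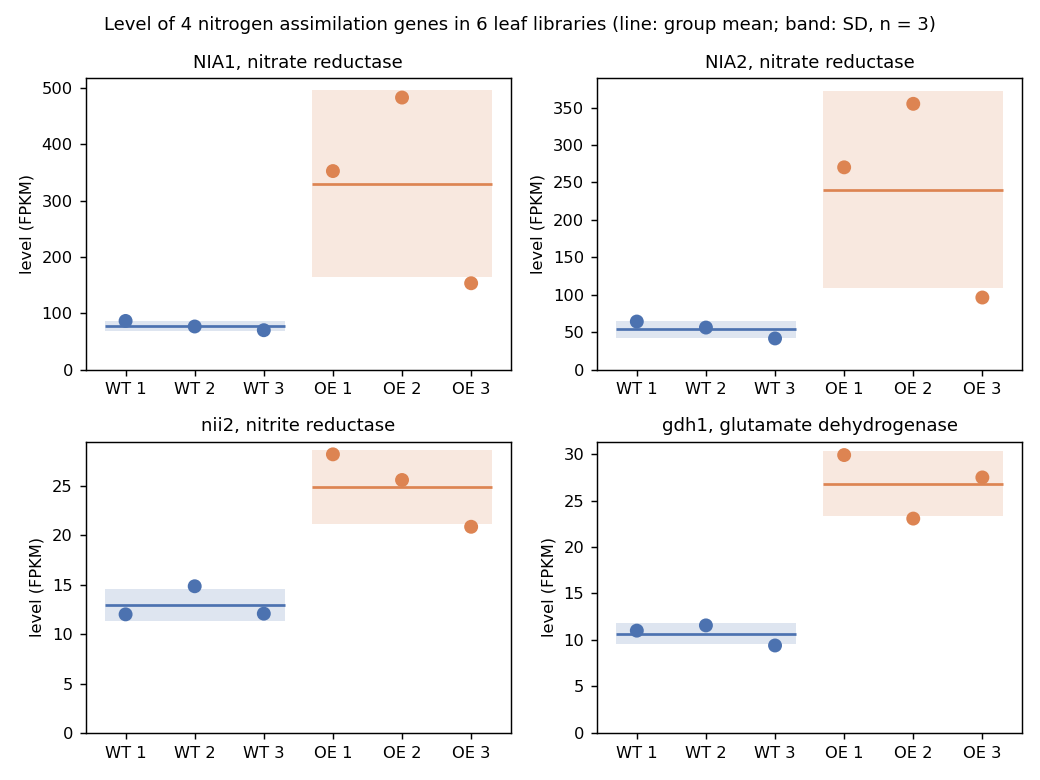
Level in FPKM (vertical axes, each from 0) of NIA1, NIA2, nii2 and gdh1 in the 3 WT libraries (blue) and the 3 OE-NtispH libraries (orange, written OE); points are single libraries, lines are group means and bands the SD (n = 3). All OE-NtispH points lie above all WT points in each panel, and for NIA1 the OE-NtispH points spread from 153.2 to 482.9 FPKM.

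At the next step of the pathway, nii2 differed less and varied less. Nitrite reductase transcripts of nii2 stood at 12.0, 14.8 and 12.1 FPKM in WT replicates 1, 2 and 3. In OE-NtispH replicates 1, 2 and 3 they stood at 28.2, 25.6 and 20.9 FPKM. The groups did not overlap, and OE-NtispH replicate 3 was again the lowest of its group. The mean level was 12.97 ± 1.62 FPKM in WT and 24.9 ± 3.72 in OE-NtispH (SD, n = 3), a ratio of 1.92, and the log2 change was 0.89 (SE 0.15).

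Glutamate dehydrogenase had another order of libraries. The level of gdh1 was 11.0, 11.6 and 9.41 FPKM in WT replicates 1, 2 and 3, and 29.9, 23.1 and 27.5 FPKM in OE-NtispH replicates 1, 2 and 3. The groups did not overlap, and here OE-NtispH replicate 2, the highest library for both nitrate reductases, was the lowest of its group. Mean levels of 10.66 ± 1.12 and 26.8 ± 3.47 FPKM (SD, n = 3) gave a ratio of 2.52 and a log2 change of 1.25 (SE 0.14). Set against the WT mean on the log2(FPKM + 1) scale, OE-NtispH replicate 3 was higher by 1.29 for gdh1 and by 0.65 for nii2.

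By limma on all tested loci with Benjamini-Hochberg adjustment at 0.05, 1.24% of tested loci were called higher in OE-NtispH and 0.567% lower, 1.81% in all. No call is given for the 4 genes. That all 4 genes had groups that did not overlap, with OE-NtispH higher, stands beside 23.9% of tested loci with the same pattern and 8.59% with the opposite one. Because the genes were chosen on this contrast, nothing is read from this pattern. The nitrate reductases had the larger changes and also the larger standard errors.

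Set against each other, the 2 nitrate reductase copies stayed within a narrow range of ratios in all libraries. The level of NIA1 over that of NIA2 took the values 1.34, 1.36 and 1.68 in the WT libraries and 1.30, 1.36 and 1.59 in the OE-NtispH libraries, in replicate order. The groups overlapped, with means of 1.46 ± 0.19 and 1.42 ± 0.15 (SD, n = 3). NIA1 made up 56.6% to 62.7% of the summed nitrate reductase level. Its share was highest in the library with the lowest sum of each group, at 62.7% in WT replicate 3 (sum of 111.4 FPKM) and 61.4% in OE-NtispH replicate 3 (sum of 249.5 FPKM). The sources used here do not say how fragments that map to both copies were assigned, so the split between NIA1 and NIA2 is less certain than their sum, and the part of shared fragments in their likeness was not tested.

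The nitrate reductases and nii2 did not keep one ratio. NIA1 over nii2 took the values 7.19, 5.15 and 5.79 in the WT libraries and 12.5, 18.9 and 7.34 in the OE-NtispH libraries, in replicate order. The groups did not overlap, but OE-NtispH replicate 3 lay close to WT replicate 1. NIA2 over nii2 was 3.44 to 5.34 in WT and 4.61 to 13.9 in OE-NtispH, and here replicate 3 fell inside the WT range. The mean difference on the log2 scale was 1.00 for NIA1 over nii2 and 1.05 for NIA2 over nii2.

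Against gdh1 the groups overlapped for every gene. NIA1 over gdh1 took the values 7.84, 6.61 and 7.43 in the WT libraries and 11.8, 20.9 and 5.58 in the OE-NtispH libraries, so that OE-NtispH held both the highest and the lowest ratio. The mean log2 difference of 0.61 became 0.16 without OE-NtispH replicate 2 and 1.11 without replicate 3. NIA2 over gdh1 was 4.42 to 5.83 in WT and 3.50, at its lowest, to 15.4 in OE-NtispH. The ratio of nii2 to gdh1 was 1.09, 1.28 and 1.28 in WT and 0.94, 1.11 and 0.76 in OE-NtispH, a mean log2 difference of -0.39. Scaling a library up or down cancels in such ratios.

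**Figure D2:**
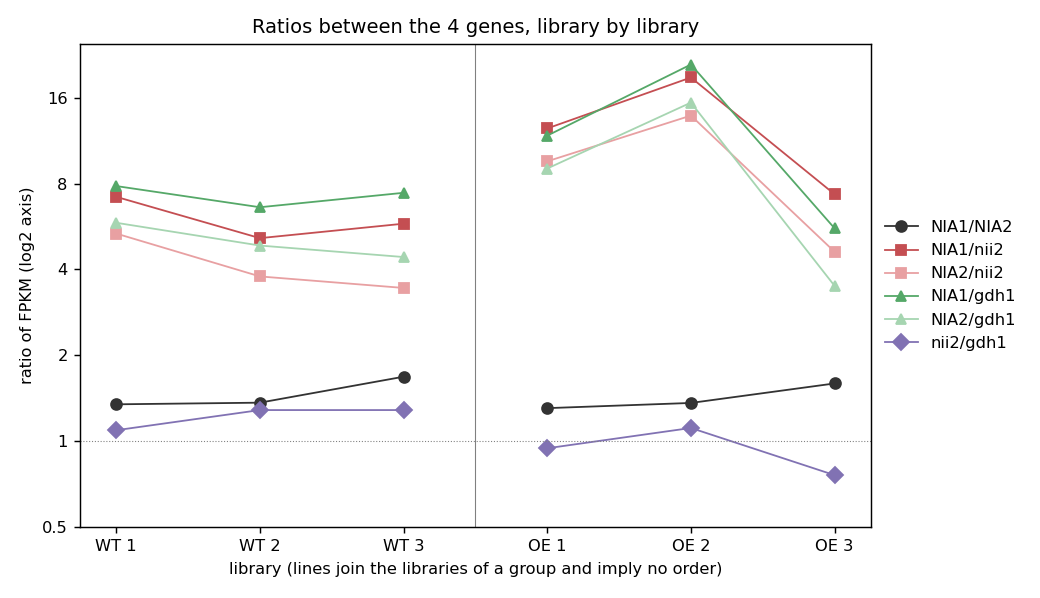
Ratio of FPKM between pairs of the 4 genes (vertical axis, log2) in each of the 6 libraries (horizontal axis). NIA1 over NIA2 (black) stays between 1.30 and 1.68, while the ratios of the nitrate reductases to nii2 (red) and gdh1 (green) peak in OE-NtispH replicate 2 and come down to the WT range or near it in replicate 3.

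The other nitrite reductase gene with a name, nii4 (LOC107765655), was more abundant than nii2 and differed less. It stood at 25.9, 28.4 and 22.1 FPKM in the WT libraries and at 37.5, 39.1 and 32.9 FPKM in the OE-NtispH libraries. The groups did not overlap, and the log2 change of 0.51 (SE 0.13) missed the threshold (limma, adjusted p = 0.0723). Without OE-NtispH replicate 3 it passed (limma, adjusted p = 0.0449), a setting that called 2210 of all tested loci higher against 506. With any other single library left out it did not pass (limma, adjusted p of 0.112 to 0.205). The share of nii2 in the summed level of nii2 and nii4 was 31.7%, 34.3% and 35.3% in the WT libraries and 42.9%, 39.6% and 38.8% in the OE-NtispH libraries. Summed over NIA1 and NIA2, nitrate reductase stood at 150.5, 132.6 and 111.4 FPKM in WT and 622.5, 837.9 and 249.5 in OE-NtispH. Nitrite reductase, summed over nii2 and nii4, stood at 37.9, 43.3 and 34.2 in WT and 65.8, 64.7 and 53.7 in OE-NtispH. Copies without a name were not looked for, so these sums may not hold all of either enzyme. The ratio of these sums was 3.06 to 3.97 in WT and 9.47, 12.9 and 4.64 in OE-NtispH replicates 1, 2 and 3, which did not overlap.

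Around the 4 genes, 20 named loci were collected by symbol in lists of nitrate uptake and reduction, ammonium assimilation, carbon skeletons and glutamate turnover, and 14-3-3 proteins, cofactors and reductant. Besides the 4 genes, 14 of 16 averaged 0.5 FPKM or more and so entered the test, of which 1 was called higher and 0 lower (limma), against 1.24% and 0.567% of all tested loci, and 5 had an unadjusted p under 0.05, as had 26.4% of all tested loci. The 14 had a median log2 change of 0.18, with 11 above 0 and 7 above the median change of 0.13 over all tested loci. The called locus was FNR (LOC107825625), for ferredoxin-NADP+ reductase, which moves electrons between ferredoxin, the electron donor of nitrite reductase, and NADPH. FNR stood at 18.3, 16.4 and 14.5 FPKM in WT and 36.0, 32.05 and 26.2 in OE-NtispH, a log2 rise of 0.89 (SE 0.15; limma, adjusted p = 0.0365). The change stayed between 0.73 and 1.01 over 14 alternatives, but the call was lost in 8 of them, with adjusted p by limma of 0.00734 to 0.172. It was lost with median-of-ratios scaling (0.0541), with no filter (0.0634) and without trend and robust fit (0.0602). Without WT replicates 1, 2 or 3 or OE-NtispH replicate 1 the call was lost too (limma, adjusted p of 0.0812, 0.172, 0.122 and 0.115).

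Nitrate uptake was represented by 5 loci of the nitrate transporter families. NtNRT1.1-s (LOC107800678) stood at 17.0, 12.7 and 12.2 FPKM in WT and 29.9, 12.8 and 26.1 in OE-NtispH (limma, adjusted p = 0.255). NtNRT1.1-t (LOC107792216) had the same order in OE-NtispH, with 12.7, 11.0 and 9.99 FPKM in WT and 19.9, 11.0 and 18.7 in OE-NtispH (limma, adjusted p = 0.199). For both, OE-NtispH replicate 2, the library with most nitrate reductase, was in the WT range. Without that library the log2 changes went from 0.61 to 0.96 and from 0.48 to 0.73, and both passed (limma, adjusted p of 0.0379 and 0.0445). That setting called 722 of all tested loci higher, against 506 with every library kept. With any other single library left out neither passed (limma, adjusted p of 0.237 to 0.533 for NtNRT1.1-s and 0.214 to 0.46 for NtNRT1.1-t). NtNRT1.2-t (LOC107799198) was at 1.49 to 5.06 FPKM in all libraries, NtNRT1.2-s (LOC107814217) at no more than 0.253 FPKM, and nrt2.2 (LOC107784727) was listed at 0 throughout, and neither of the last 2 was tested.

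Downstream, the named glutamine synthetase genes Gln1-5 and Gln1-3 did not follow nii2 and nii4. The list held no locus named for glutamate synthase or for a plastid glutamine synthetase, so those steps were not looked at. Gln1-5 (LOC107825623), for a cytosolic glutamine synthetase, stood at 23.6, 25.3 and 30.8 FPKM in the WT libraries and at 8.47, 17.6 and 6.69 FPKM in OE-NtispH replicates 1, 2 and 3. The groups did not overlap, with OE-NtispH lower, but the log2 change of -1.31 (SE 0.32) missed the threshold (limma, adjusted p = 0.0738). Without OE-NtispH replicate 2 it passed at -1.68 (limma, adjusted p = 0.0198), a setting that called 633 of all tested loci lower against 231. With any other single library left out it did not pass (limma, adjusted p of 0.0793 to 0.226). Gln1-3 (LOC107777858), another gene of the family, was at 5.29 to 5.74 FPKM in WT and 4.56 to 8.04 in OE-NtispH (limma, adjusted p = 0.822). AS1 (LOC107829769), which entered by its symbol alone and whose product is not named in the gene table, had 8.36 to 8.59 FPKM in WT and 7.11 to 7.55 in OE-NtispH (limma, adjusted p = 0.317).

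Of the 4 loci for carbon skeletons and glutamate turnover, 0 were called, beside 1.81% of all tested loci, and 1 had an unadjusted p under 0.05, beside 26.4% (limma; the 3 with the highest level had adjusted p of 0.109 to 0.589). NtGAD1 (LOC107798147), for glutamate decarboxylase, which turns glutamate into GABA, was at 136.3 to 162.9 FPKM in WT and 180.5 to 225.1 in OE-NtispH. IDH (LOC107815853), for isocitrate dehydrogenase, a source of 2-oxoglutarate, was at 112.7 to 126.3 and 121.2 to 135.0 FPKM. The phosphoenolpyruvate carboxylase gene ppc (LOC107777405) was at 9.88 to 12.2 and 8.50 to 10.2 FPKM, and groups overlapped for IDH and ppc but not for NtGAD1. NtSiR1 (LOC107780886) is for sulfite reductase, an enzyme with the same siroheme cofactor as nitrite reductase. It was at 20.4, 21.5 and 18.4 FPKM in WT and 30.1, 30.4 and 27.3 in OE-NtispH. Its log2 change of 0.52 missed the threshold (limma, adjusted p = 0.0548). It passed without OE-NtispH replicate 3 (limma, adjusted p = 0.0334) or with a minimum mean of 2 FPKM (limma, adjusted p = 0.0456), settings that called 2210 and 980 loci higher against 506. With any other single library left out it did not pass (limma, adjusted p of 0.0753 to 0.188). T14-3-3 (LOC107784347), of a protein family whose members bind and inhibit phosphorylated nitrate reductase in spinach, was at 47.1 to 50.8 and 54.8 to 63.3 FPKM (limma, adjusted p = 0.194).

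**Figure D3:**
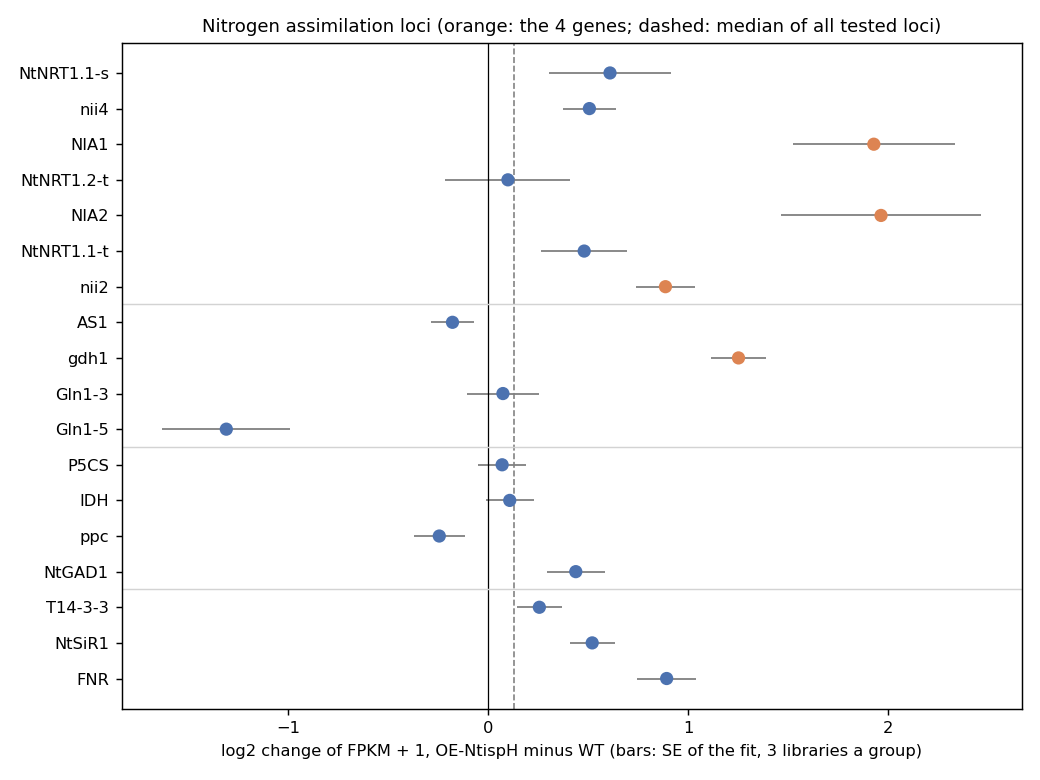
Log2 change of FPKM + 1 between OE-NtispH and WT (horizontal axis; bars are the standard error of the fit, 3 libraries a group) for the 18 tested named loci, the 4 genes in orange, with grey lines between the 4 lists and a dashed line at the median of all tested loci, 0.13. NIA1 and NIA2 lie farthest to the right with the widest bars among the 4 genes, and Gln1-5 lies farthest to the left.

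The profiles over the 6 libraries were compared by the mean absolute difference of log2(FPKM + 1) values after the mean of each locus was taken off, among the 18748 tested loci that averaged 5 FPKM or more, of which 699 have a gene name. For NIA1 the most similar of all other loci was NIA2, and for NIA2 it was NIA1, at a distance of 0.124. As this includes the difference between groups on which the genes were chosen, the measure was repeated on deviations from each group's mean. There NIA2 was in place 27 of 18747 for NIA1, and NIA1 in place 11 for NIA2. On the same deviations nii4 was in place 775 for nii2 at a distance of 0.089, and nii2 was in place 3406 for NIA1 at 0.324. Counted from nii2, at that same distance, NIA1 was in place 17071.

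Lox1 and CYP72A52v1, named next, reach a mean of 5 FPKM through the OE-NtispH libraries, and the distance holds the group difference, so their likeness is a description that follows in part from how the loci were taken. After NIA2, the named locus most like NIA1 was the lipoxygenase gene Lox1 (LOC107806322), at 0.256. Lox1 stood at 1.58, 1.74 and 2.25 FPKM in WT and 11.4, 14.03 and 2.29 in OE-NtispH replicates 1, 2 and 3, so it shared the low replicate 3. The next for NIA1 was PROX1 (LOC107790219) at 0.391, and for NIA2 Lox1 at 0.264 and CYP72A52v1 (LOC107825461) at 0.344. The named loci most like nii2 were the peroxidase gene poxN1 (LOC107773042) at 0.079, FNR at 0.09 and BIP5 (LOC107771425), for a chaperone of the endoplasmic reticulum, at 0.095. Those most like gdh1 were CHN14 (LOC107784434) at 0.113, the cytochrome P450 gene CYP94A4 (LOC107794387) at 0.14 and BZI-1 (LOC107818216), for a bZIP transcription factor, at 0.155. BZI-1 was at 12.8, 15.7 and 13.8 FPKM in WT and 32.2, 22.2 and 31.7 in OE-NtispH, with replicate 2 the lowest of its group as for gdh1. No likeness here says anything of shared function or control.

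**Figure D4:**
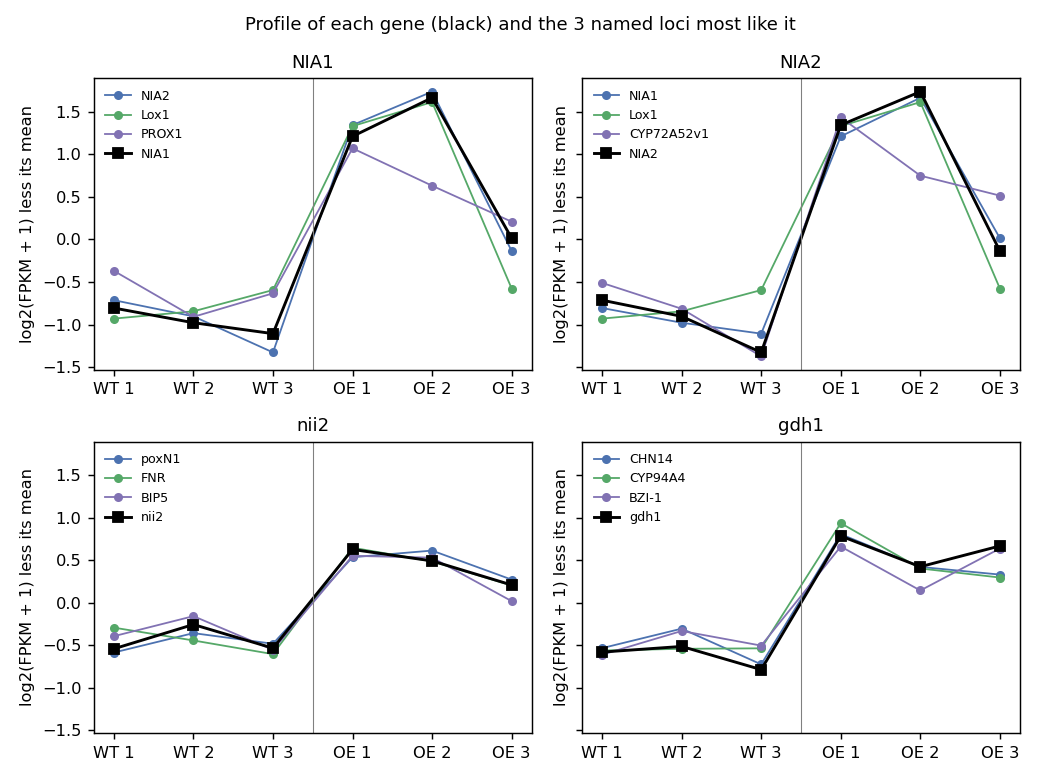
Log2(FPKM + 1) less the mean of each locus (vertical axes) in the 6 libraries for NIA1, NIA2, nii2 and gdh1 (black) and the 3 named loci most like each (coloured). NIA1, NIA2 and Lox1 share a peak in OE-NtispH replicate 2 and a low replicate 3, whereas gdh1 and BZI-1 are lowest of their group in replicate 2.

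In the gene order of the RefSeq assembly ASM71507v2, the 4 protein-coding loci on each side of each gene, 32 in all, were looked up. Of these 22 were tested and 1 was called (limma, adjusted p = 0.0424), beside 1.81% of all tested loci. The called locus was LOC107792342, which lies 2 loci from gdh1 and stood at 59.8, 46.4 and 41.9 FPKM in WT and 110.2, 79.7 and 99.0 in OE-NtispH. The 5 tested neighbours of NIA1 had log2 changes of -0.17 to 0.22 and the 3 of NIA2 0.19 to 0.27, while the 7 of nii2 ranged from -1.13 to 0.58 and the 7 of gdh1 from -0.45 to 0.95. In bulk leaf RNA, fewer cells of a type and less RNA per cell cannot be told apart, and the part of the leaf mesophyll markers in the differences of the 4 genes was not tested.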

How the data were processed

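The deposited table holds FPKM, which the authors had scaled by transcript length and by mapped fragments, for poly(A) RNA of mature leaves. RSEM, StringTie, HISAT2, Bowtie2 and fastp are named per the submitters' processing notes, without versions. Not given in the sources used here are the genome build, the annotation and the treatment of fragments that map to several loci. Groups and replicate numbers came from the sample titles. Gene names came from the RefSeq table of ASM71507v2, which matched 49268 of 61780 gene numbers, and which also gave the order of neighbouring genes. No coordinates are printed and no sequences were used. The analysis was done on log2(FPKM + 1) of the 40725 loci that averaged 0.5 FPKM or more. The comparison of groups used limma 3.58.1 under R 4.3.3 (moderated, two-sided, with trend and robust options, Benjamini-Hochberg at 0.05) and no term for replicate number. This scale understates the change of low loci. Ratios between genes were taken from FPKM. The fit was run on simulated data in which loci were drawn independently, without shared library effects, so that run does not test the calls in these libraries. The 4 genes and the lists were chosen with earlier results of these data known. Lists were built from gene symbols: 26 loci matched, and 6 were left out because their names stand for other proteins. Named loci were the 4 genes, ISPH, in each list the called loci and the 3 of highest level, and for each of the 4 genes the 3 named loci most like it. Other list loci were added after their values were seen. Alternatives were a pseudocount of 0.1, no filter, a minimum mean of 2 FPKM, median-of-ratios scaling, TPM, quantile normalization, limma without trend, a replicate block and leaving out each library. Python 3.11.15 with pandas 2.3.3 and matplotlib 3.10.9 made tables and figures.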

Additional observations from a re-analysis of the deposited data

How the results depend on the processing

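The log2 changes of the 4 genes kept their direction in each of 11 alternatives. They ranged from 1.58 to 2.40 for NIA1, 1.59 to 2.52 for NIA2, 0.73 to 1.00 for nii2 and 1.09 to 1.35 for gdh1. All moved by less than the spread between replicates. With 3 libraries a group, leaving out 1 library cannot move a change by more than that, and the replicate block cannot move it at all. Nor can leaving out 1 library turn the direction where groups do not overlap. For these alternatives the outcome was fixed in advance and says nothing of robustness. The ratios between them also moved by less than this spread in each of 9 alternatives (scaling a library cancels in them), with the same limit. The log2 difference of NIA1 over gdh1 still ranged from 0.16 to 1.11. Directions were kept, except that the small log2 difference of -0.042 in NIA1 over NIA2 turned to 0.062 without WT replicate 3 and to 0.016 without OE-NtispH replicate 1. The number of loci called rests on the settings. Against 506 higher and 231 lower, limma called 26 and 12 without a filter, 980 and 395 with a minimum mean of 2 FPKM, 235 and 360 with quantile normalization, 38 and 15 without trend and robust fit, and 124 higher with median-of-ratios scaling (188 lower). Leaving out 1 library gave 0 to 2210 higher and 0 to 893 lower, with 0 in both directions when WT replicate 1 or OE-NtispH replicate 1 was left out (limma, 10207 and 7221 at unadjusted p under 0.05). Of the 14 other nitrogen loci tested, 1 was called, against 2 with a minimum mean of 2 FPKM, 0 without a filter, 0 with median-of-ratios scaling, 0 without trend (limma, 11633, 8815 and 10536 of all loci at unadjusted p under 0.05), and 0 to 4 when a library was left out. With the replicate block 48 loci were higher and 20 lower, and 0 of the 14 were called (FNR: limma, adjusted p = 0.055; 10110 of all loci at unadjusted p under 0.05). Same-numbered libraries correlated at -0.13, 0.045 and -0.16 in their deviations from the group means. WT replicates 1 and 3 correlated best with a library of another number, and WT replicate 2 with that of its own number. With 3 libraries a group, these values cannot decide whether the numbers pair the samples. Direction turned for loci near 0: NtNRT1.2-t had log2 changes of -0.024 with median-of-ratios scaling, -0.002 with quantile normalization and -0.165 to 0.477 when a library was left out (below 0 without OE-NtispH replicate 1 or 2), and Gln1-3 had -0.067, -0.061 and -0.125 to 0.225 (below 0 without OE-NtispH replicate 3). With these 2 scalings P5CS had -0.076 and -0.076 and IDH -0.056 and -0.009. The cause was not tested. A comparison of loci by protein identity was not run, because protein sequences were not used here, and no product names were used, so that the lists rest on symbols alone. The number of reads is unknown, which limits what can be said of loci of low level.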
